A study of Mus musculus with 10 samples.

Results

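The comparison described here sets hearts of Larp7 knockout mouse embryos against wild-type hearts at embryonic day E15.5. It holds 6 of the 10 samples of the series, 3 of whole Larp7+/+ hearts and 3 of whole Larp7-/- hearts, all C57BL/6 and without treatment. Of 15498 genes listed at this age, 13609 reached a per-million value of 1 or more in at least 3 samples and were tested. The series text calls the allele a conventional knockout, so the change is present in every tissue of the embryo and not only in heart muscle. Which part of Larp7 was removed is not stated, nor whether samples of a genotype are from different embryos. A p-value here thus speaks of the spread among these samples, which may be technical.

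LARP7 is a La-related protein that binds the 3′ end of 7SK, a noncoding RNA made by RNA polymerase III, and protects it from decay. The 7SK particle holds the kinase P-TEFb (CDK9 with a cyclin T) in an inactive form through HEXIM1 or HEXIM2, and P-TEFb releases paused RNA polymerase II into elongation. LARP7 also binds the spliceosomal RNA U6 and guides its 2′-O-methylation. In the heart at this stage the chamber walls thicken, the outflow and valves mature, and muscle cells build up mitochondria for oxidative metabolism.

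The values of each sample sum to about 1000000 (998498 to 1001508), so depth is unknown and no counting error can be given. In 13474 of the 13609 genes the 2 samples that share a replicate number, 1 of each genotype, add to 1 total per gene (within 2), and the 3 pairs, not the 6 samples, carry the information. For Ckm, for example, the sums are the same in the pairs 743 and 415, 712 and 446, and 854 and 304. The spread is therefore equal in both genotypes by construction, and all changes are given as the mean of 3 within-pair differences of log2(value + 1), knockout minus wild type. The genes listed cover 54.1% to 72% of annotated protein-coding genes on chromosomes 1 to 8 and 11, but 19.3% to 33.6% on chromosomes 9, 10 and 12 to 19. Gene lists are shortened accordingly, and Myh6 and Myh7, the cardiac myosin heavy chains on chromosome 14, were not analysed here.

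Larp7 itself, on the minus strand of chromosome 3 (127536714 to 127553349, mm10), had 96, 88 and 103 in the wild type and 45, 54 and 40 in the knockout. The groups did not overlap, and the mean was 46.3 ± 7.09 (SD, n = 3) against 95.7 ± 7.51 (log2 change -1.04, SE 0.17, limma, adjusted p = 0.00159). Its partner RNA 7SK, listed as Rn7sk, was at 1, 1 and 2 in the wild type and 1 in each knockout sample, too low to show a change. Whether the library method keeps this RNA is not stated.

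Among the other 7SK and P-TEFb factors, 0 of 16 tested were called by limma. In limma 2 were higher at an unadjusted p under 0.05, as were 1401 of all 13609 tested genes. The HEXIM inhibitors had the largest differences. Hexim1 had 40, 43 and 24 in the wild type and 55, 51 and 71 in the knockout, and Hexim2 had 6, 4 and 9 against 13, 15 and 11. All knockout values lay above all wild-type values for both genes, with log2 changes of 0.74 and 0.98 that did not pass the test (limma, adjusted p = 0.239 and 0.1). Supt5, a pausing and elongation factor that P-TEFb phosphorylates, stood at 98, 91 and 96 against 114, 122 and 118, also without overlap (log2 0.31, adjusted p = 0.378). Of the La family, Ssb, the La protein itself, had 129, 136 and 136 against 122, 116 and 116, and Larp1 had 145, 138 and 152 against 165, 172 and 157 (log2 changes of -0.18 and 0.18, limma, adjusted p = 0.655 and 0.649). Polr2a, the largest subunit of RNA polymerase II, was 111, 117 and 85 in the wild type and 157, 151 and 183 in the knockout, without overlap (log2 0.65, limma, adjusted p = 0.065). The 32 tested polymerase II and Mediator genes as a list had a median log2 change of -0.04, with 0 called (limma, 1 higher and 2 lower at an unadjusted p under 0.05). Of these 10 were lower (31.2%) and 4 higher (12.5%) without overlap, against 8.75% and 19.3% of all tested genes. The small subunit Polr2l had 20, 21 and 29 against 18, 17 and 9 (log2 -0.67, limma, adjusted p = 0.298).

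Over all tested genes 72 were higher in the knockout (0.529%) and 14 lower (0.103%) at an adjusted p under 0.05 in limma. With median-of-ratios scaling the split was 26 higher and 13 lower. All 86 showed no overlap between the groups, a pattern that 2631 genes (19.3%) showed upward and 1191 (8.75%) downward. Where the pairs add to a fixed total, no overlap says little more than that all 3 pairs had the same direction. It is therefore no separate evidence from 6 independent values, here or in the lists below. Under median-of-ratios scaling it was shown by 2197 genes (16.1%) upward and 3328 (24.5%) downward, so the list counts below hold for the values as deposited. The median log2 change over all tested genes was 0.11, so that list medians below are to be read against that value. At an unadjusted p under 0.05 limma had 1401 of all tested genes higher and 492 lower, and 8234 (60.5%) had a positive change. Among the 8366 genes with a mean of at least 10, 25.2% were higher and 12.9% lower without overlap in the deposited values. Counts in the lists, above and below, are to be read against these shares and the 19.3% and 8.75% given. Pair medians are to be read against 0, 0.10 and 0 in pairs 1, 2 and 3. A mean under 10 was found in 19 of the 72 risen and 1 of the 14 fallen genes, against 38.5% of all tested genes, and Mest (3007 on average) and Nppa (1366) were the only risen genes above 500. These calls depend on how a gene's spread is estimated, and on simulated data the share of false calls was well above the nominal one. In 3 other settings (genes with a mean under 10 left out, no allowance for rounding, or a variance prior without trend and robust options) limma called 0 genes, with 1100, 1422 and 1166 at an unadjusted p under 0.05. Of the 86 calls, 20 held when each of the 6 samples was left out in turn. With the block, leaving out either sample of a pair removes that pair from the change, so the 6 fits hold 3 distinct changes. These fits called more genes than the main fit (171 to 422 higher), with an infinite median prior against 27.54 degrees of freedom. A call that held thus rests on spread pooled over genes and says little about the gene's own spread.

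**Figure D1:**
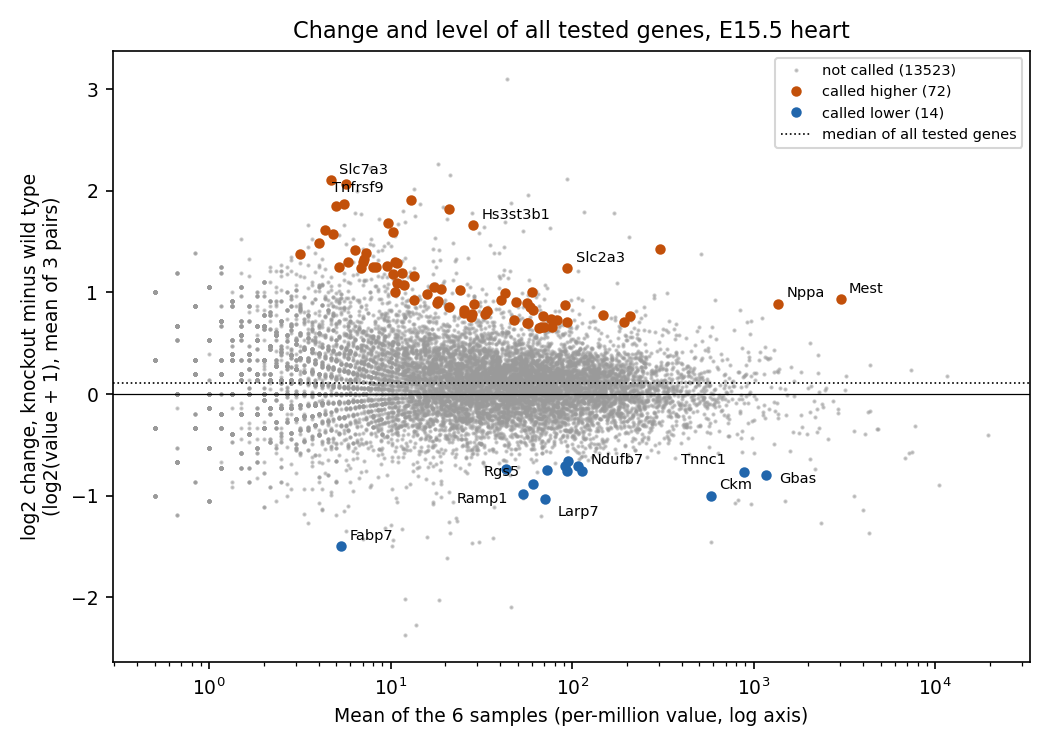
Each point is 1 of the 13609 tested genes, with the mean per-million value of the 6 samples on a log x axis and the log2 change, knockout minus wild type, on the y axis. Called genes are orange (72 higher) or blue (14 lower); the dotted line is the median of all tested genes (0.11), and points in curved rows at low values are whole-number values.

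Among called genes whose mean reached 8, the largest falls after Larp7 were in Ckm, Ramp1 and Rgs5. Ckm, the muscle creatine kinase that buffers ATP at the myofibril (chromosome 7, 19404776 to 19422841), had 743, 712 and 854 in the wild type and 415, 446 and 304 in the knockout (log2 -1, SE 0.18, limma, adjusted p = 0.00875). Ramp1, the subunit that turns the calcitonin receptor-like receptor into the receptor for calcitonin gene-related peptide (chromosome 1, 91179822 to 91225196), fell from 66, 77 and 71 to 41, 30 and 36 (log2 -0.99, SE 0.17, adjusted p = 0.00265). Rgs5, a G protein signaling regulator typical of pericytes, fell from 83, 76 and 80 to 39, 47 and 42 (log2 -0.89, adjusted p = 0.00694). In each of these genes the lowest wild-type value was above the highest knockout value. Ckm also stands in the list of skeletal muscle markers (13 of 24 tested, 2 called lower, median log2 change 0.33), but without the called members Ckm and Cav3 the other 11 summed to 247, 218 and 202 in the wild type and 195, 225 and 246 in the knockout, with overlap.

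Tnnc1, cardiac troponin C, fell from 1018, 1124 and 1189 to 746, 640 and 576, and Cav3, the muscle caveolin of the sarcolemma, from 110, 120 and 125 to 78, 68 and 63. Gbas, which encodes the mitochondrial protein NIPSNAP2, fell from 1612, 1528 and 1309 to 731, 814 and 1033. The respiratory complex I subunits Ndufb7 (124, 143 and 158 against 102, 83 and 68), Ndufc1 (82, 94 and 99 against 64, 52 and 47) and Ndufa13 (121, 136 and 141 against 93, 78 and 73) fell by similar amounts. Their log2 changes lay between -0.75 and -0.70, close to that of Mrps26, a protein of the mitochondrial ribosome (50, 56 and 57 against 36, 31 and 30; log2 -0.73). Cops5, the catalytic subunit of the COP9 signalosome that removes NEDD8 from cullins, fell from 108, 116 and 115 to 74, 65 and 67. The 8 other tested signalosome subunits held no further call, and the list of 9 had a median log2 change of 0.01. Cisd1, an iron-sulfur protein of the outer mitochondrial membrane, fell from 110, 123 and 116 to 80, 67 and 74. The largest fall of all called genes was at a low level, in Fabp7, a fatty acid binding protein of immature glia, at 8, 8 and 9 against 2, 3 and 2 (log2 -1.5, limma, adjusted p = 0.0146).

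Leaving out samples ended many of these calls, and with the pairs this acts through the number left out. The log2 change is the same whichever sample of a pair is left out. Here and below, a call lost without only 1 of them does not single out that sample. Ckm, Cav3, Ndufb7 and Ndufc1 lost their calls without either number 3 sample (limma, adjusted p from 0.0975 for Ckm to 0.301 for Ndufb7). Rgs5 (0.0882) and Gbas (0.475) lost them without number 1 of the knockout, and likewise without number 1 of the wild type. Tnnc1, Mrps26, Cops5 and Cisd1 lost theirs without either number 1 or either number 3 sample, with adjusted p of up to 0.293, 0.0896, 0.0899 and 0.127. Ndufa13 lost its call without either number 3 sample (up to 0.206) or number 1 of the knockout (0.0517), and Fabp7 without number 1 of the wild type (0.053). Larp7 and Ramp1 held in all 6 cases.

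The largest rises were in genes that were low in the wild-type heart. Tnfrsf9, the costimulatory receptor 4-1BB (chromosome 4, 150914562 to 150946102), rose from 4, 4 and 7 to 22, 22 and 19 (log2 1.91, SE 0.25, limma, adjusted p = 0.000101). Hs3st3b1, which adds 3-O-sulfate to heparan sulfate (chromosome 11, 63885792 to 63922290), rose from 12, 10 and 18 to 44, 47 and 39 (log2 1.66, SE 0.21, adjusted p = 0.00012). These stood well apart from the wild-type range in every knockout sample. Slc2a3, the high-affinity glucose transporter GLUT3, had 61, 55 and 51 against 127, 134 and 137 (log2 1.24, SE 0.16), the lowest adjusted p among named genes (8.45e-05).

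A further heparan sulfate 3-O-sulfotransferase, Hs3st4, rose from 5, 4 and 4 to 11, 12 and 12, and St8sia2, which builds polysialic acid on the adhesion molecule NCAM, from 5, 8 and 7 to 18, 15 and 16. Wnt16, a Wnt ligand, rose from 5, 6 and 6 to 16, 15 and 15, and Clic6, a chloride intracellular channel protein, from 5, 5 and 4 to 16 in each knockout sample. Gbp6, an interferon-inducible guanylate-binding protein, rose from 4, 3 and 7 to 13, 13 and 10. The list of 27 tested interferon-induced genes had a median log2 change of 0 and no call (limma, 1 at an unadjusted p under 0.05), and that list holds neither Gbp6 nor its relative Gbp8, which rose from 1, 1 and 4 to 10, 10 and 7. Oit3 rose from 8, 6 and 4 to 14, 16 and 17. Lad1, a basement-membrane anchoring protein of epithelia, was 2, 7 and 4 against 17, 12 and 16, and Elovl4, a fatty acid elongase, was 4, 6 and 5 against 21, 10 and 11. In Elovl4 number 1 of the knockout stands apart, and its wild-type partner adds to the gene's total only with the opposite sign.

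Of these 11 rises, Tnfrsf9, Hs3st3b1, Clic6, Hs3st4 and Slc2a3 held without any 1 sample. Lad1 (adjusted p = 0.0847, limma) and Wnt16 (0.073) were no longer called without knockout sample 1, and Oit3 (0.0669) without number 3 of the knockout. Their log2 changes are the same without the wild-type partner, so no knockout sample is singled out. St8sia2 (up to 0.199) and Elovl4 (up to 0.406) lost theirs without either number 1 sample, and Gbp6 (up to 0.141) without either number 1 or either number 2 sample.

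**Figure D2:**
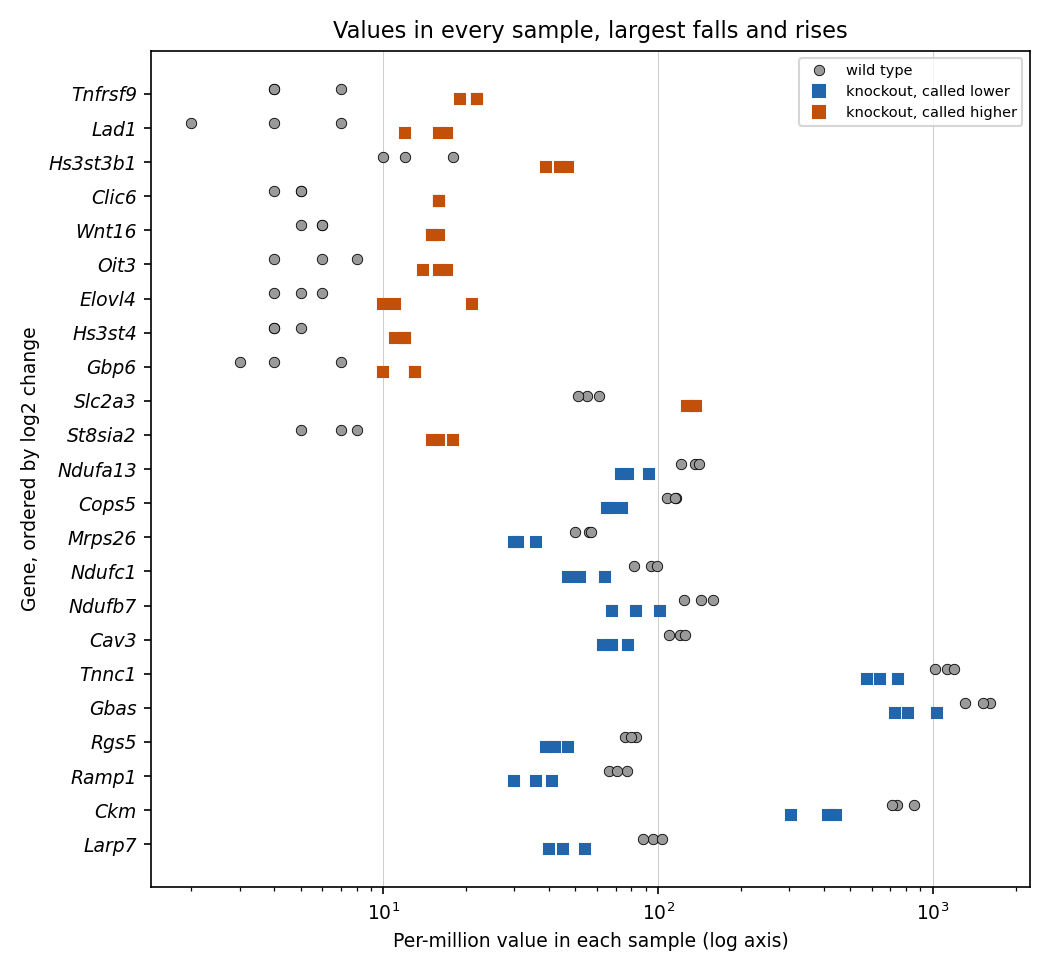
Per-million values in each of the 6 samples, on a log x axis, for 12 of the largest falls and 11 of the largest rises whose mean reached 8, ordered by log2 change. Grey circles are wild-type samples and colored squares knockout samples; in all 23 genes the 3 knockout values lie to 1 side of the 3 wild-type values.

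The other called rises were sorted by role after their values had been seen. Signaling and guidance genes among them were Bmp3, a BMP ligand (1, 2 and 3 against 9, 7 and 7), Gfra1, a GDNF receptor (3 in each wild-type sample against 9, 10 and 10), Epha7, an ephrin receptor (66, 62 and 58 against 100, 103 and 107), and Etv5, a transcription factor downstream of FGF (41, 31 and 36 against 54, 66 and 60). Srgap3, a GTPase-activating protein of the Slit-Robo pathway, Prickle2, of planar cell polarity, Tsku, Ndnf, Dclk1 and the adhesion molecule Alcam also rose. Ion channel and calcium genes were Gria3, a glutamate receptor subunit (29, 27 and 29 against 57, 58 and 57), Kcnj3, Kcne3 and Itpr2, an inositol trisphosphate receptor. Enzymes of small molecules were Adh1, Adh6b, Aass, Ptges, Alox5, Gfpt2 and Renbp. Adh6b, an alcohol dehydrogenase, rose from 3, 1 and 1 to 8, 10 and 11 (log2 2.07, SE 0.33, limma, adjusted p = 0.00177) and Ptges, a prostaglandin E synthase, from 2, 2 and 1 to 7 in each knockout sample. Gfra1, Prickle2, Alcam, Gria3, Adh6b and Gbp8 held without any 1 sample. Bmp3, Adh1, Ndnf, Itpr2, Gfpt2 and Renbp were no longer called without either number 1 sample (limma, adjusted p of up to 0.196), Etv5 and Kcne3 without either number 2 sample (up to 0.187), and Alox5 and Ptges without knockout sample 3 (up to 0.0787). Epha7 and Srgap3 lost their calls without either number 1 or either number 3 sample (up to 0.15), Aass and Tsku without either number 1 or either number 2 sample (up to 0.292), and Dclk1 without either number 1 sample or knockout sample 2 (up to 0.0946). Mest, an imprinted gene expressed from the paternal allele, was the most abundant risen gene, at 2379, 1753 and 2079 against 3635, 4262 and 3936 (log2 0.94, SE 0.2, adjusted p = 0.0236). It lost its call without either number 1 or either number 3 sample (adjusted p of up to 0.0707). Of 15 tested imprinted genes 14 had a positive change, against 60.5% of all tested genes (median log2 0.39), and Mest was the 1 call.

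Genes of mitochondrial oxidative phosphorylation had lower values in the knockout in nearly all members. Of 25 tested complex I subunits, 22 had all knockout values below all wild-type values against 8.75% of all tested genes, and the median log2 change was -0.48 (-0.30, -0.61 and -0.44 in pairs 1, 2 and 3). The 3 called members were Ndufb7, Ndufc1 and Ndufa13, all accessory subunits. The most abundant member, Ndufs1, the largest iron-sulfur subunit of the electron input module, had 514, 439 and 529 against 473, 547 and 458, with full overlap. The range over members ran from -0.75 to 0, so the members differed in size of change.

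The same direction was seen in complexes II and III (8 of 11 without overlap and lower, median -0.41), complex IV (7 of 9, median -0.39) and ATP synthase (14 of 14, median -0.41), with 0 called in limma in each list (7, 6 and 8 lower at an unadjusted p under 0.05). Uqcr11, a small complex III subunit, had 130, 144 and 152 against 106, 91 and 82 (log2 -0.61, adjusted p = 0.0736). Cox7c of complex IV had 203, 254 and 274 against 202, 152 and 132, and Atp5j, a coupling subunit of ATP synthase, 326, 383 and 352 against 265, 209 and 240. Atp5b, the catalytic beta subunit and the most abundant of its list, was 4435, 4836 and 4613 against 4311, 3910 and 4133, a log2 change of -0.17. Pair 1 had the smallest median in all 4 lists, between -0.30 and -0.13.

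The 13 protein genes of mitochondrial DNA had a median log2 change of -0.89, but the pairs differed: -0.14, -1.22 and -0.84. Their summed value was 59152, 88749 and 77382 in the wild type and 64675, 35078 and 46444 in the knockout, so the groups overlapped through pair 1. mt-Cytb, of complex III, was 11942, 15212 and 13396 against 8952, 5683 and 7499 without overlap (limma, adjusted p = 0.0629). mt-Co1, of complex IV and the most abundant, was 12880, 29302 and 23982 against 26220, 9798 and 15118. None of the 13 was called (6 lower at an unadjusted p under 0.05). mt-Co1 had a log2 change of -0.41 over the pairs and of 0.18 without either number 2 sample.

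Several other lists of mitochondrial genes had smaller negative medians. In the large mitochondrial ribosomal subunit 29 of 35 and in the small subunit 19 of 27 were lower without overlap (medians -0.29 in both), and Mrps26 was the 1 call. Of 25 import and protein quality genes 12 were lower without overlap (median -0.18). There Tomm5, a small subunit of the outer membrane translocase, had 71, 81 and 81 against 56, 46 and 46 (log2 -0.65, limma, adjusted p = 0.0571). Of 16 cristae and mitochondrial dynamics genes 8 were lower and 2 higher without overlap (median -0.19), and of 15 pyruvate dehydrogenase and tricarboxylic acid cycle genes 8 were lower and 0 higher (median -0.18), with 0 called in both (limma, 3 and 1 lower and 1 and 0 higher at an unadjusted p under 0.05). Chchd6, which shapes cristae, had 39, 44 and 37 against 25, 21 and 28 (log2 -0.68, adjusted p = 0.0694), and Mpc2, of the pyruvate carrier, 128, 148 and 139 against 106, 86 and 95 (log2 -0.53, adjusted p = 0.126). Of 26 fatty acid uptake and oxidation genes 9 were lower and 3 higher without overlap, with a median of -0.02 that was negative in each pair (-0.12, -0.04 and -0.14). Of 22 glycolysis genes 1 was lower (4.55%) and 5 were higher (22.7%) without overlap (median 0.16). The share of higher genes was close to the 19.3% of all tested genes. Neither the fatty acid nor the glycolysis list held a call (limma, 5 and 3 at an unadjusted p under 0.05).

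Other mitochondrial lists were near the median of all genes. The 25 mitochondrial carriers had a median of 0.02 with 14 positive (56%), and the 19 regulators of mitochondrial biogenesis 0.07 with 13 positive (68.4%). Of all tested genes 60.5% were positive. The 21 genes that maintain mitochondrial DNA and RNA had a median of -0.09, with 6 lower and 1 higher without overlap. Differences between these lists were not tested.

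Short transcripts had lower values as a class. Among the 8014 tested genes whose mean reached 10 and whose length is annotated, the shortest 10% (57 to 1232 bases in the longest annotated transcript) had a median log2 change of -0.21 and the longest 10% 0.18. Lower values without overlap made up 33.5% of the shortest 10% and 3.49% of the longest, and higher values 3.74% and 41.1%. Complex I transcripts had a median length of 1046 bases. Cytosolic ribosomal protein transcripts were as short (1049 and 1094 bases for the large and small subunit), with median changes of -0.04 and -0.05 and pair medians on either side of 0, and 9 of 35 and 6 of 21 of them were lower without overlap. Proteasome subunits (median length 1851 bases, 13 of 24 lower without overlap) had a median of -0.19. Psmb3, a subunit of the core particle, was 163, 181 and 163 against 118, 102 and 119 (log2 -0.58, limma, adjusted p = 0.0867). The Wnt, matrix, guidance and collagen lists described below have long transcripts, with median lengths of 3985, 3853, 5874 and 6024.5 bases. The part of transcript length in the values of the lower and the higher lists was not tested.

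**Figure D3:**
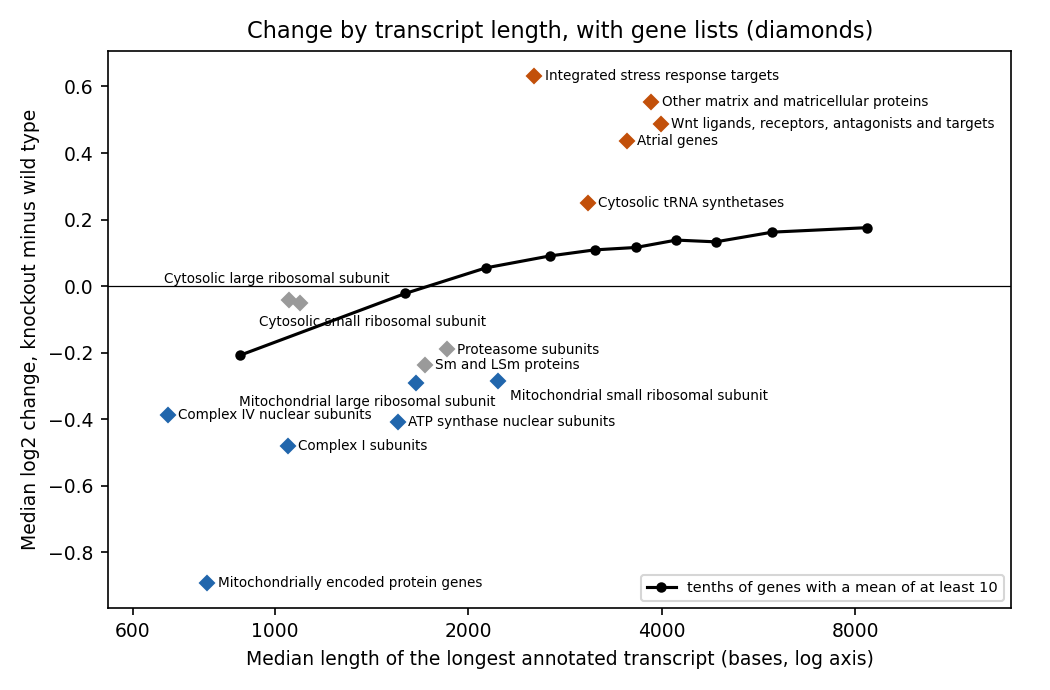
Median log2 change, knockout minus wild type, against median transcript length (log x axis) in 10 equal groups of the 8014 genes (black line and circles) and in gene lists (diamonds). The line goes from -0.21 to 0.18; complex I lies at -0.48 near 1046 bases and the cytosolic ribosomal subunits at -0.04 and -0.05 near the same length.

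Sm and LSm genes encode small ring proteins that bind uridine-rich stretches of spliceosomal RNAs. Of 19 tested, 12 were lower without overlap (median log2 -0.24). In limma 0 were called, with 6 lower and 2 higher at an unadjusted p under 0.05. An LSm ring sits on U6, the RNA that LARP7 binds. Lsm2 had 60, 64 and 65 against 51, 47 and 46, Lsm3 38, 49 and 38 against 32, 21 and 32, and Lsm4 171, 191 and 172 against 136, 116 and 135. The 17 genes of the U4/U6.U5 particle and U6 processing had a median of 0.10, about that of all genes, with 6 higher and 4 lower without overlap and pair medians of 0.04, 0.30 and -0.07. Its 3 members of lowest p were higher: Prpf8, the scaffold of the particle, had 189, 194 and 160 against 264, 260 and 293 (log2 0.59, adjusted p = 0.0891), and Snrnp200, the helicase that unwinds U4 from U6, 126, 138 and 111 against 185, 172 and 199 (log2 0.57, adjusted p = 0.102). Prpf3 stood at 33, 31 and 32 against 45, 47 and 46. None of these passed the test. The Sm and LSm transcripts had a median length of 1711 bases and the U4/U6.U5 and U6 processing genes 3144 bases.

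Cardiomyocyte markers had lower values as a list, and atrial and trabecular genes higher ones. Of 13 tested cardiomyocyte markers 8 were lower and 2 higher without overlap, the median log2 change was -0.40, and Tnnc1 was the 1 call. Their summed value was 27759 to 31548 in the wild type and 21802 to 25589 in the knockout, and Actc1, cardiac actin and the most abundant, had 7884, 8997 and 8737 against 7528, 6416 and 6675. In whole-heart RNA fewer cells of a type and less RNA per cell cannot be told apart. Other muscle lists differed. Of 15 thin filament genes 8 were lower and 1 higher without overlap (median -0.20, Tnnc1 called). Of 15 thick filament and M-band genes 4 were higher (26.7%) and 2 lower (13.3%) without overlap (median 0.06). The 6 ventricular chamber genes (0.18), 14 calcium cycling genes (0.08) and 11 intercalated disc genes (0.10) were near the median of all genes. Median transcript lengths were 1473 bases for cardiomyocyte markers, 2153 for thin and 3696 for thick filament genes. For ventricular, calcium cycling and intercalated disc genes they were 2076, 4919.5 and 3682 bases. The ventricular light chains, which stand both in the thick filament list and among the cardiomyocyte markers, were lower chiefly in pair 3: Myl3 had 2185, 2337 and 2897 against 1895, 1743 and 1183, and Myl2 2228, 2446 and 3415 against 2149, 1931 and 962 (log2 -0.64 and -0.74, limma, adjusted p = 0.172 and 0.505). Of 16 Z-disc and stretch-responsive genes 9 were lower without overlap (median -0.30), with Fhl1, a LIM-domain protein of the sarcomere, at 272, 238 and 252 against 159, 193 and 179 and 0 called (6 lower at an unadjusted p under 0.05).

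All 13 tested atrial genes had a positive change, 10 without overlap, against 60.5% and 19.3% of all tested genes. Their median log2 change was 0.44, and Nppa and Kcnj3 were called. Nppa, the atrial natriuretic peptide and in the embryo a gene of atria and trabeculae (chromosome 4, 148000722 to 148002079), rose from 880, 945 and 1052 to 1852, 1787 and 1681 (log2 0.89, SE 0.19, limma, adjusted p = 0.0186). It lost its call without either number 1 sample (up to 0.242). Kcnj3, a channel subunit of the atrial acetylcholine-gated potassium current, rose from 19, 22 and 20 to 37, 33 and 35. It lost its call without either number 1 sample (up to 0.303) or number 3 of the knockout (0.0552). The atrial list rested on pair 3, with pair medians of 0.14, 0.05 and 0.98. Trabecular genes were more even (0.41, 0.17 and 0.48 for 11 genes), and Slit2, a secreted Robo ligand, joined Nppa there at 113, 116 and 99 against 184, 181 and 199.

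Targets of the integrated stress response were higher. This pathway slows translation through phosphorylated eIF2 and raises the transcription factor ATF4, whose targets take up and make amino acids. Of 24 tested targets 17 were higher without overlap against 19.3% of all tested genes, and none was lower without overlap; the median log2 change was 0.63 (0.32, 0.59 and 0.79 in the pairs). Chac1, a glutathione-degrading enzyme, rose from 1, 1 and 3 to 8, 11 and 6, though its value in number 2 of the wild type adds to the gene's total only with the opposite sign. Mthfd2, the mitochondrial folate enzyme, rose from 43, 32 and 43 to 70, 81 and 70 (log2 0.9, SE 0.17, limma, adjusted p = 0.00987). Sesn2, a leucine sensor that restrains mTORC1, rose from 15, 10 and 12 to 21, 26 and 24. Chac1 and Mthfd2 held without any 1 sample, and Sesn2 lost its call without either number 2 sample (up to 0.146).

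A motif known to bind ATF4 with C/EBP partners was looked for in the RefSeq promoters of these genes (250 bases before to 50 after the start, GRCm38.p6). Among 23 of the 24 targets with a promoter there, 8 held TGATGNAA on either strand, against 4.51% of 27025 genes. The targets are in large part known as ATF4 genes, so the share is a description of the list. The stretches shown are those of Chac1 (chr2:119351023-119351082, plus strand), Asns (chr6:7693210-7693269, minus strand), Atf3 (chr1:191183410-191183469, minus strand), Pycr1 (chr11:120643818-120643877, minus strand) and Slc7a11 (chr3:50443637-50443696, minus strand), 60 bases each, 5′ to 3′ along the gene, with matches to the motif or its reverse complement in capitals. They are 5 of the 8 carriers, chosen after their values were seen, and Slc7a11 is shown because it holds 2 matches and had a negative change. Chac1: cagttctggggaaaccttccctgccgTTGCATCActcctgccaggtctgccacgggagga
Asns: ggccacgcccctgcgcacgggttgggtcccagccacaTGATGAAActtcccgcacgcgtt
Atf3: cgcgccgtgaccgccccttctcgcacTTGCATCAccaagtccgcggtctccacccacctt
Pycr1: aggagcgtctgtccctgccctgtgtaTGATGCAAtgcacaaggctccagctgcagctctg
Slc7a11: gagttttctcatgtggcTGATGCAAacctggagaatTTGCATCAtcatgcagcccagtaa
The values of these genes, named for the motif, were as follows. Asns, asparagine synthetase, had 23, 10 and 28 against 70, 82 and 64 (log2 1.88, limma, adjusted p = 0.252), the largest log2 change of the 5 genes shown. Pycr1, of proline synthesis, had 34, 22 and 34 against 49, 61 and 48 (log2 0.81, adjusted p = 0.0586), and Atf3, a transcription factor of the response, 27, 30 and 28 against 43, 41 and 42 (log2 0.55, adjusted p = 0.13). Slc7a11, the cystine transporter, had 22, 30 and 17 against 14, 5 and 18, with overlap (log2 -0.97, adjusted p = 0.615). Of the carriers not shown, Trib3, a pseudokinase of the response, had 5, 3 and 0 against 10, 13 and 15 (log2 2.23, limma, adjusted p = 0.379). Nupr1, a stress-induced nuclear protein, had 5, 6 and 4 against 6, 6 and 8, and Vldlr, a lipoprotein receptor, 253, 230 and 182 against 234, 257 and 305, both with overlap (log2 0.36 and 0.26). A match is a description of these letters and no evidence of binding in these hearts. In all 5 motifs were searched: TGATGNAA, TGATGCAA, TGANGCAA, TGACGTCA and CACGTG, on both strands, the first 3 overlapping each other.

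Amino acid transporters moved beside these targets. Of 14 tested, 10 were higher without overlap and the median log2 change was 0.62. Slc7a3, a cationic amino acid transporter, rose from 2, 0 and 2 to 8, 9 and 7 (log2 2.11, SE 0.37, limma, adjusted p = 0.0146) and held without any 1 sample. Slc1a4, a transporter of neutral amino acids, was 16 in each wild-type sample against 25, 27 and 26 (log2 0.67, adjusted p = 0.105). Of 16 cytosolic tRNA synthetases 10 were higher without overlap (median 0.25, 0 called, 4 higher at an unadjusted p under 0.05), as with Cars at 23, 19 and 21 against 31, 35 and 33. The 14 mitochondrial synthetases had a median of -0.02 and 1 member higher without overlap. The difference between both kinds of synthetase was not tested. Pair 1 again gave the smallest changes in the stress and transporter lists.

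**Figure D4:**
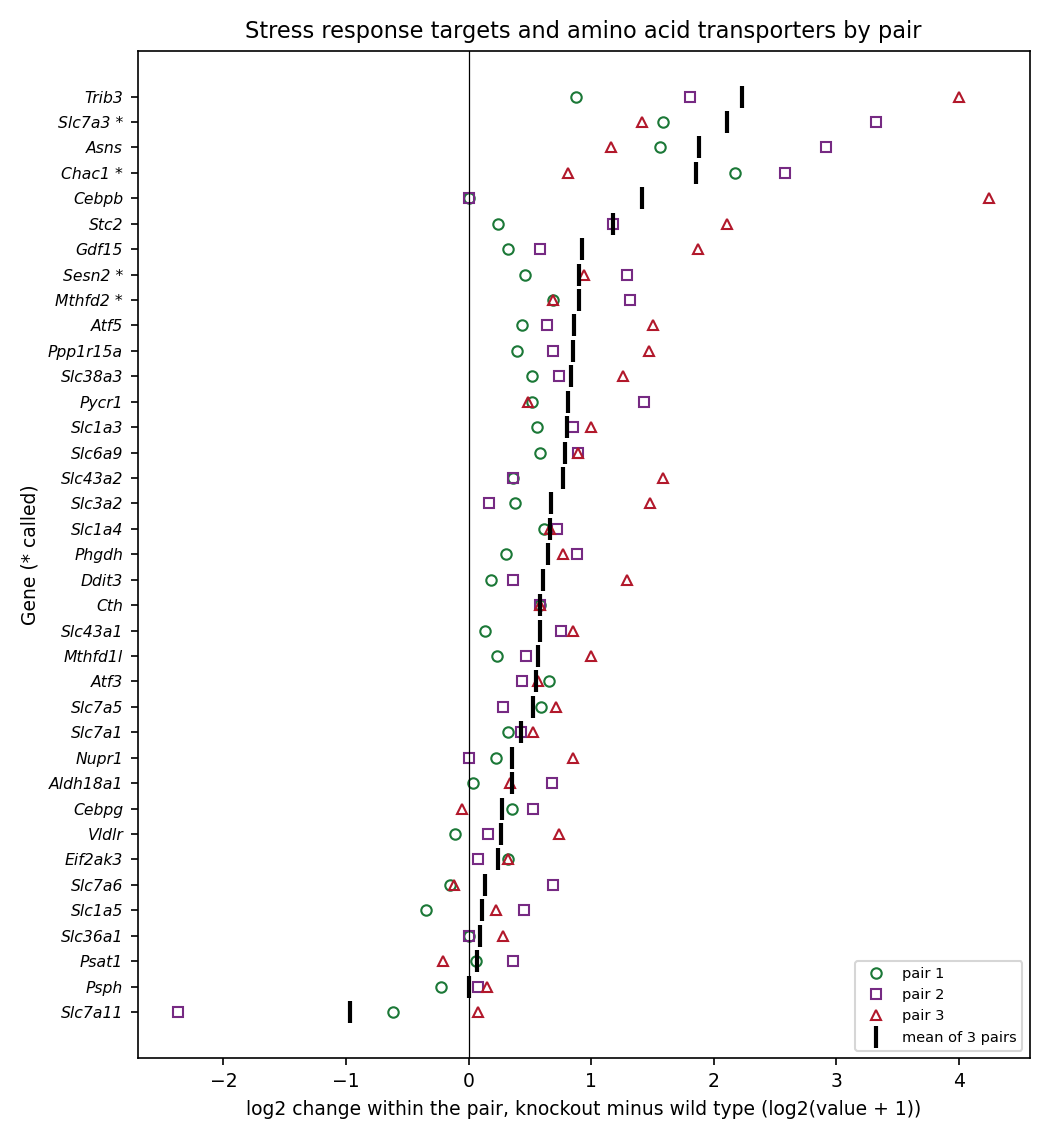
Log2 change within each same-numbered pair (open symbols) and their mean (black bars) for the tested stress response targets and amino acid transporters, ordered by mean; asterisks mark the 4 called genes. All means but that of Slc7a11 (-0.97) lie to the right of 0.

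Wnt, guidance and matrix genes had higher values in the knockout, with few calls. Of 35 tested genes of the Wnt list 16 were higher and 0 lower without overlap (median log2 0.49; 0 called in limma, 12 higher at an unadjusted p under 0.05). Axin2, the feedback gene used as a readout of beta-catenin signaling, had 5, 9 and 7 against 16, 12 and 15 (log2 0.96, adjusted p = 0.0736), and Wnt11, a ligand of outflow tract and myocardium, 13, 13 and 6 against 20, 20 and 26 (log2 1.04, adjusted p = 0.102). Wnt4, a ligand of cushion endocardium, had 2, 6 and 6 against 15, 11 and 11. Sfrp1, a secreted Wnt inhibitor, stood at 396, 399 and 396 against 558, 555 and 558 (adjusted p = 0.179), so ligands, a target and an inhibitor shared the direction. Wnt16, described above, was called but is not in that list.

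In the guidance list 15 of 29 genes were higher and 1 lower without overlap (median 0.37), and Slit2 and Sema3b were called. Sema3b, a secreted semaphorin, rose from 28, 25 and 20 to 39, 43 and 48. Slit2 lost its call without either number 1 or either number 3 sample (adjusted p of up to 0.121, limma), and Sema3b without either number 3 sample (up to 0.154). Heparan sulfate, the chain that holds Slit, Wnt and FGF ligands at the cell surface, was represented by 20 genes, of which 10 were higher and 0 lower without overlap (median 0.38). Its calls were Hs3st3b1 and Sdc4, a syndecan, at 140, 135 and 164 against 247, 251 and 222. Sdc4 lost its call without either number 1 sample (up to 0.26).

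Among 25 matrix and matricellular genes 15 were higher and 0 lower without overlap (median 0.55, with pair medians of 0.14, 0.19 and 0.79). Thbs1, thrombospondin 1, was the 1 call, at 62, 61 and 56 against 92, 94 and 98, and lost it without either number 1 or either number 3 sample (up to 0.171). Fn1, fibronectin, had 866, 899 and 529 against 1033, 1000 and 1370, where pair 3 holds most of the difference. Vcan, the versican of cardiac jelly and cushions, had 294, 288 and 278 against 454, 460 and 470, an even difference that did not pass the test (log2 0.68, limma, adjusted p = 0.0505). Of 26 collagen chains 13 were higher and 2 lower without overlap (median 0.34, with pair medians of 0.11, 0.08 and 0.57). The 1 call was Col9a1, a chain of the cartilage-type collagen IX, at 8, 5 and 5 against 13, 15 and 16. It was no longer called without knockout sample 3 (0.0612). All 14 TGF-beta pathway genes had a positive change, against 60.5% of all tested genes (median 0.34, 0 called in limma, 3 at an unadjusted p under 0.05).

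**Figure D5:**
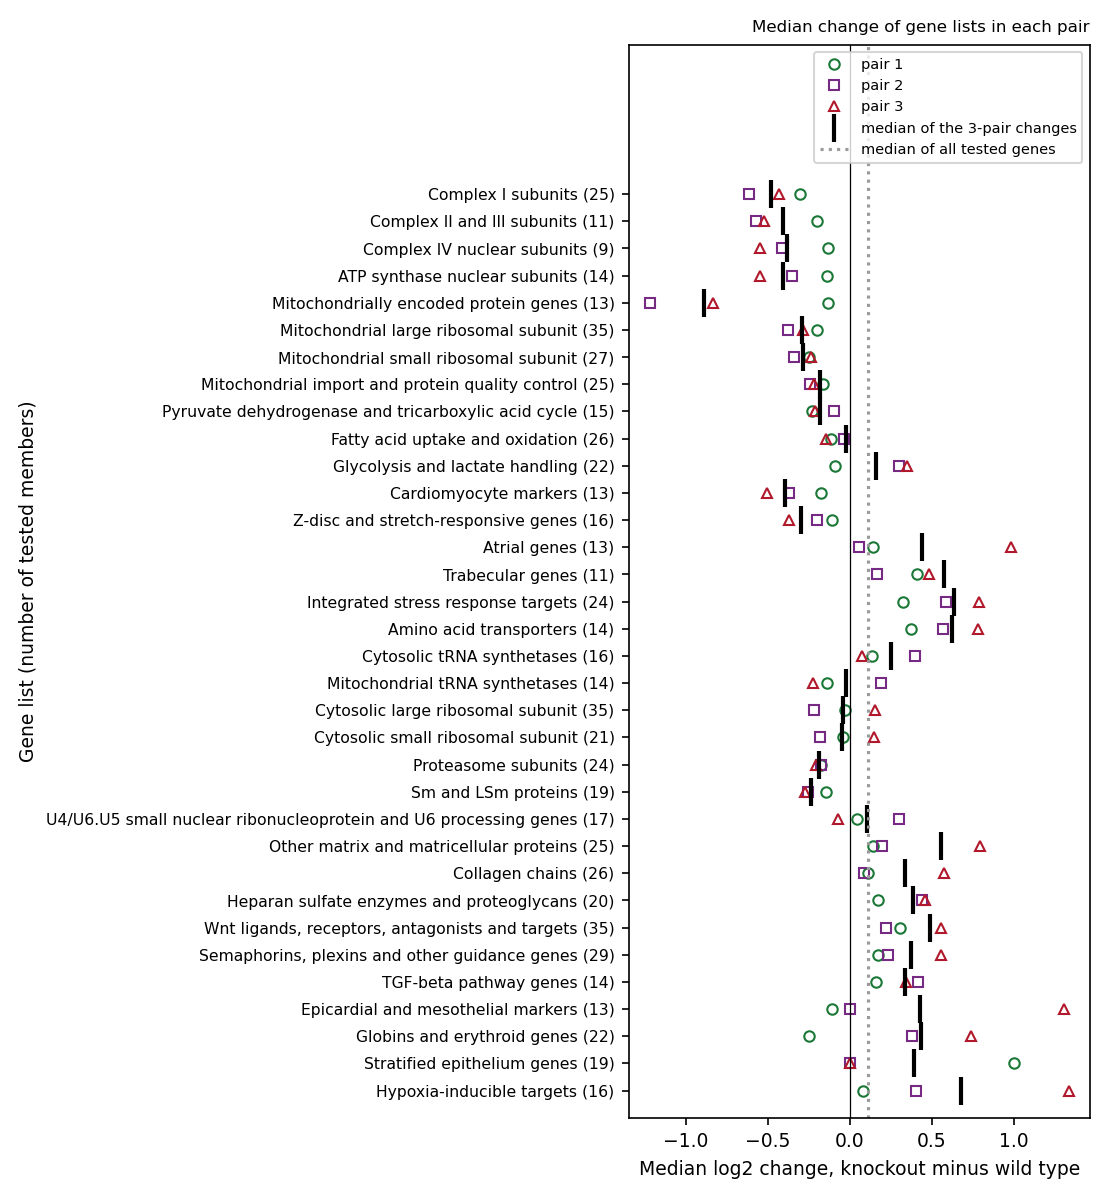
Median log2 change, knockout minus wild type, of 34 gene lists in pair 1 (circles), pair 2 (squares) and pair 3 (triangles), with the median of the mean changes as black bars and that of all tested genes (0.11) as a dotted line. Respiratory chain and mitochondrial ribosome lists lie left of 0 in every pair, and stress, transporter, Wnt and matrix lists lie right of 0, while the epithelium median is 1 in pair 1 and 0 in the others, and that of hypoxia targets is 0.08, 0.40 and 1.33.

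Markers of the cells a whole heart holds gave these levels. Fibroblast markers (10 of 15 tested) summed to 4745 to 5779 in the wild type and 5693 to 6721 in the knockout, and Pdgfra, a receptor of cardiac fibroblasts, rose from 71, 72 and 69 to 115, 115 and 118 (limma, adjusted p = 0.0296). It lost its call without either number 1 or either number 3 sample (up to 0.162). Endothelial markers (16 of 21) summed to 1897 to 1936 against 2088 to 2124, and the 6 endocardial markers to 139 to 191 against 213 to 262, without overlap in either. The endothelial markers were mixed, with 11 positive and 5 negative changes. Cdh5, the most abundant, was lower without overlap, at 305, 292 and 322 against 256, 269 and 239. The 17 tested coronary and capillary endothelium genes had a median log2 change of -0.004, with 3 higher and 5 lower without overlap. Smooth muscle and pericyte markers (10 of 20) summed to 1008 to 1154 against 957 to 1104, with a call in each direction: Rgs5 fell, and Anpep, an aminopeptidase, rose from 23, 24 and 25 to 43, 42 and 41 (lost without either number 1 sample, up to 0.189). Macrophage markers (15 of 22, 161 to 204 against 186 to 223) and erythroid genes (22 of 31, 3405 to 8086 against 5135 to 10123) overlapped. The part of cell composition in the muscle, matrix and Wnt values was not tested.

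Targets of p53, the transcription factor of the damage response, had 9 of 18 tested members higher and 0 lower without overlap (median 0.22), and Sesn2, Btg2 and Eda2r were called. Btg2, an antiproliferative early-response gene, was no longer called without either number 1 sample (limma, adjusted p of up to 0.204). Eda2r, a member of the TNF receptor family, lost its call without either number 1 or either number 2 sample (up to 0.141). Immediate early genes had 12 of 21 higher without overlap (median 0.75), again with Btg2 as the 1 call. Their pair medians were 0.30, 0.16 and 0.84, so pair 3 was the largest.

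Markers of tissues outside the heart gave these levels. Stratified epithelium genes (19 of 35 tested) summed to 144, 101 and 91 in the wild type and 336, 111 and 121 in the knockout, so number 1 of the knockout stood apart. Krt15, a basal keratin, had 36, 18 and 18 against 74, 19 and 19. Its value of 36 in number 1 of the wild type adds to the gene's total only with the opposite sign. The sum of 144 holds that value, and 78 tested genes had such a value in this sample. Lad1, the called member of that list, was high in all 3 knockout samples. None of 12 lung and airway markers reached the level for testing, and 3 of 15 liver and 2 of 14 T cell markers did, among them Alb, albumin, at 1 to 4 and Trf, transferrin, at 48, 20 and 63 against 79, 106 and 63, with overlap. Of 29 replication genes 7 were lower and 1 higher without overlap, and of 22 mitosis genes 5 were lower and 1 higher. The medians were 0.01 and -0.07 and 0 were called (limma, 4 and 2 lower at an unadjusted p under 0.05). Pcna, the replication clamp, had 236, 253 and 259 against 209, 191 and 186 (log2 -0.35, adjusted p = 0.33).

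Of 91 lists with at least 9 tested members, 29 had a positive median and 19 a negative median in all 3 pairs. The 19 included translation factors, cardiomyocyte, thin filament and Z-disc genes, all respiratory complexes, the mitochondrial ribosome, import, tricarboxylic acid cycle, fatty acid, creatine, proteasome and Sm genes. The 29 included atrial, stress response, transporter, cytosolic tRNA synthetase, collagen, matrix, heparan sulfate, Wnt, BMP, TGF-beta, FGF, guidance and imprinted genes. These signs were counted against 0, while the median of all tested genes was 0, 0.10 and 0 in pairs 1, 2 and 3. Of the positive lists named here, the atrial (0.05), collagen (0.08) and FGF (0.09) lists lay below that of all genes in pair 2. The lists share members, so these counts describe the 3 pairs and are no test.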

How the data were processed

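Total RNA of whole embryonic hearts was sequenced with Illumina libraries, per the labels' protocols. HISAT2, HTSeq and mm10 are named in the submitters' processing notes, without versions. The authors deposited scores, per-million values rounded to whole numbers, beside log2 fold changes and p-values of their own (per the file headers), which were not used; no source used here states how they were scaled. Same-numbered samples add to fixed totals (deviations correlate at -0.82 to -0.8 over 8366 genes), which set the pairs; the labels do not state a pairing. Changes were fitted in limma 3.58.1 (R 4.3.3) on log2(value + 1), with the replicate number as a block, the variance of rounding (0.0833) added at each gene's mean, eBayes with trend and robust options (median prior 27.54 degrees of freedom) and Benjamini-Hochberg adjustment at 0.05 over 13609 genes with a value of 1 or more in at least 3 samples. The 5 fits tried for block, rounding and filter were tested on simulated data, where the share of false calls exceeded the nominal one in each. The comparison and its 102 gene lists were chosen with earlier results of these data known. Cdsn was taken out of the stress response list after values had been seen, since it is no member of that response. Named genes are Larp7, called genes (with every sample's value for the 12 largest rises and falls whose mean reached 8, of which 1 rise is not reported here), and per list its called members, otherwise up to 4 of lowest p and the most abundant. Rn7sk, Asns, Atf3, Pycr1, Slc1a4, Slc7a11, Trib3 and Nupr1 fall outside this rule and were chosen after their values were seen. Transcript lengths are from GENCODE M21 and promoters from RefSeq (GRCm38.p6). The adult hearts of the series were not analysed here. The alternatives were no block, no rounding variance, 2 other filters, pseudocounts 0.5 and 5, median-of-ratios scaling, another prior, each sample left out, and genes with a changed-sign value left out.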

Additional observations from a re-analysis of the deposited data

How the results depend on the processing

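The counts of called genes (72 higher, 14 lower) moved with nearly every choice. None of the 86 genes changed direction under any setting, but each had the same direction in every pair. Leaving out a sample, or changing the block, rounding variance, filter, prior or pseudocount, therefore could not reverse a direction. Only median-of-ratios scaling could have done so, and the unchanged directions are no evidence of stability under the other settings. With no replicate block limma called 430 higher and 174 lower genes with rounding variance and 701 and 339 without it; keeping the replicate block but dropping rounding variance gave 0 and 0 (1422 at an unadjusted p under 0.05). Without a filter on low values it called 480 and 121, with a mean of at least 10 it called 0 and 0, and with a prior without trend and robust options 0 and 0. A pseudocount of 0.5 gave 39 and 7, a pseudocount of 5 gave 195 and 37, and median-of-ratios scaling gave 26 higher. Leaving out genes with a changed-sign value gave 98 and 20. Leaving out 1 sample gave 171 to 422 higher and 40 to 87 lower genes. Of the 86 calls, 84 held with no replicate block and rounding variance, 46 with a pseudocount of 0.5, 38 with median-of-ratios scaling and 38 to 78 with 1 sample left out. Counts of genes without overlap stayed near 2631 and 1191, except that scaling gave 3328 lower genes, 541 of which had 6 equal values before it. With 1 sample left out the log2 change of Ndufs1 ran from -0.16 to 0.10 and the log2 change of mt-Co1 ran from -1.12 to 0.18. Each of these fits drops 1 pair from the change, and the pairs of Ndufs1 stood at -0.12, 0.32 and -0.21. Why the pairs differed was not tested. Under median-of-ratios scaling the medians of the signalosome, replication, mitochondrial carrier, thick filament and translation factor lists, all close to 0, turned negative. The residual spread of each gene has 2 degrees of freedom, and depth is unknown.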
